A study of Rattus norvegicus with 16 samples.

Results

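The genes described here encode enzymes with which mitochondria burn acetyl-CoA, ketone bodies and branched-chain amino acids. They are 32 genes listed by symbol and found in the gene entries of every library, 32 of 32754 entries. 15 belong to the tricarboxylic acid (TCA) cycle and the malate-aspartate shuttle, 3 to ketone body oxidation and 14 to branched-chain amino acid catabolism. The match ignored case, since the files spell Idh3b as Idh3B. RNA was sequenced from the right ventricle of female Sprague Dawley rats of 20 to 21 weeks. Rats of the genotype ERalpha -/- (KO), which lack the estrogen receptor alpha, and wild-type rats (WT) had either pulmonary artery banding for 10 weeks (PAB), which loads the right ventricle with pressure, or sham surgery (SHAM). The groups KO PAB, KO SHAM, WT PAB and WT SHAM hold 4 libraries each, and a number after the group gives the replicate. How the mutation was made, and whether each library is its own animal, is not stated in the labels, so the spread behind each p-value may be technical.

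The TCA cycle oxidises acetyl-CoA from fat, glucose, ketone bodies and amino acids and passes the electrons to the respiratory chain, and the heart depends on it for most of its energy. To use ketone bodies, the heart takes up beta-hydroxybutyrate from blood. Bdh1 oxidises it to acetoacetate, Oxct1 activates acetoacetate with the CoA of succinyl-CoA, and Acat1 splits the product into acetyl-CoA. Branched-chain amino acids lose their amino group to Bcat2 and are then committed to breakdown by the branched-chain ketoacid dehydrogenase (Bckdha, Bckdhb, Dbt and Dld), which the kinase Bckdk switches off.

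Libraries held 22168110 to 34718633 counts, and the 32 genes together took 1.54% to 2.08% of them. Esr1, which encodes ERalpha, had 7 to 13 counts in KO PAB, 10 to 21 in KO SHAM, 70 to 131 in WT PAB and 91 to 139 in WT SHAM, so every library had the Esr1 level of its label. The share of transcripts encoded by mitochondrial DNA was 33.9% to 43.2%. The 8 cardiomyocyte markers were present throughout, with a summed level of 34170 to 48620 CPM (counts scaled to the library total) in KO PAB, 35800 to 46770 in KO SHAM, 45510 to 50790 in WT PAB and 27820 to 54710 in WT SHAM.

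3 sham libraries, KO SHAM 4, WT SHAM 2 and WT SHAM 3, were already known to be high in adipocyte and mesothelial markers. The summed level of 8 mesothelial markers was 108.1 CPM in KO SHAM 4, 120.7 CPM in WT SHAM 2 and 57.8 CPM in WT SHAM 3, against 7.61 to 30.0 CPM in the other 13 libraries. Adipoq, the adipocyte hormone adiponectin, was at 11.1, 45.6 and 28.1 CPM in these 3, at 5.21 CPM in KO PAB 3 and at 0 to 0.355 CPM in the other 12. The summed level of 8 adipocyte markers did not set the 3 apart (253.1 to 299.7 CPM in KO PAB, 265.0 to 378.3 CPM in KO SHAM, 291.1 to 331.0 CPM in WT PAB and 303.0 to 364.7 CPM in WT SHAM), where Fabp4, at 208.1 to 342.2 CPM, made up most of it in every library. Smooth muscle markers summed to 1279, 2787 and 825.7 CPM in KO SHAM 4, WT SHAM 2 and WT SHAM 3, against 59.9 to 242.6 CPM in the other 13, and fibroblast markers to 2486, 3456 and 2118 CPM, against 841.3 to 1933 CPM. The same libraries were low in nearly all of the 32 genes. For 30 of the 32, each of the 3 was below each of the other 5 sham libraries, as for 15.3% of all genes tested, and the median log2 difference in mean level was -0.48 over the 32 genes. The exceptions were Bdh1 (-0.255) and Bckdha (-0.0347). KO SHAM 4, WT SHAM 2 and WT SHAM 3 also had the highest TMM factors of the 16 libraries (1.189, 1.239 and 1.103), which lower their CPM. As a share of unscaled counts, the 32 genes took 1.814%, 1.542% and 1.806% in these 3. That share was 1.878% to 2.076% in the other 5 sham libraries and 1.718% to 2.052% in the banded libraries. WT SHAM 2 was the lowest of all 16 libraries for 29 genes. Its cardiomyocyte sum was also the lowest (27820 CPM), with 35800 CPM in KO SHAM 4 and 39340 CPM in WT SHAM 3. KO PAB 3 and KO PAB 4, at 34170 and 38980 CPM, were low in that sum too and had TCA gene sums of 11370 and 11600 CPM, against 12490 and 14420 CPM in KO PAB 2 and KO PAB 1. The markers Myh6 and Actc1 weigh most in the cardiomyocyte sum. Myh6 was at 9521 and 10450 CPM in KO PAB 3 and KO PAB 4, against 15120 and 18620 CPM in KO PAB 2 and KO PAB 1. Actc1 was at 11440 and 14290 CPM, against 15110 and 12620 CPM, so KO PAB 4 was not low in every marker. How much of each banding difference below follows from these libraries was not tested separately, and values without the 3 sham libraries are given for the genes the results turn on. In pieces of tissue, fewer cardiomyocytes and less RNA of a gene per cardiomyocyte cannot be told apart.

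**Figure D1:**
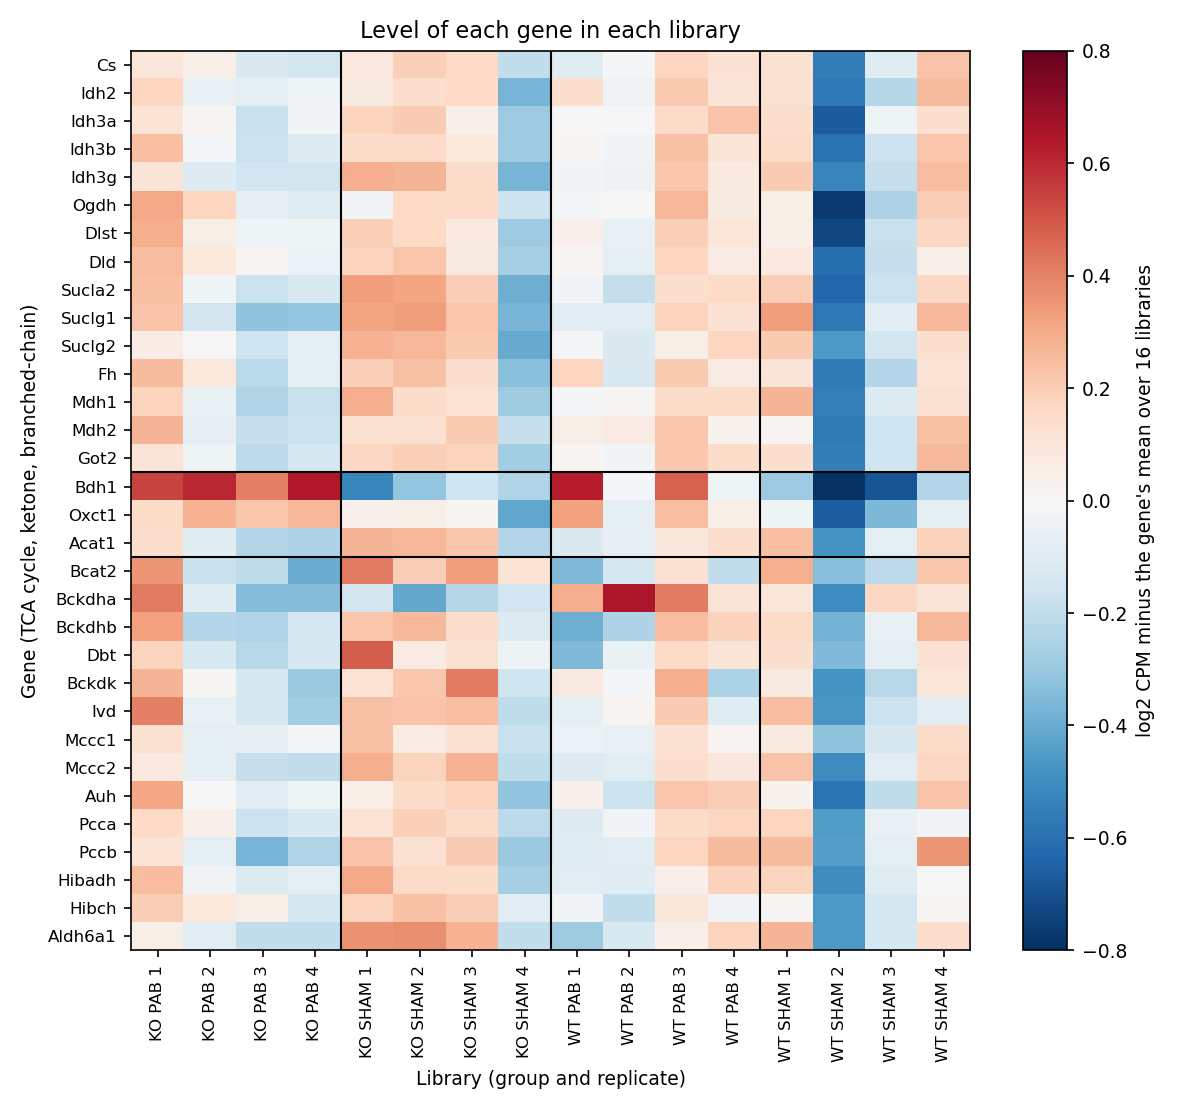
Level of each of the 32 genes (rows, in the order TCA cycle, ketone and branched-chain) in each of the 16 libraries (columns, by group), as log2 CPM minus the gene's mean over all libraries, blue for lower and red for higher. WT SHAM 2 was lowest for 29 of the 32 genes, while Bdh1 shows its own pattern, high in KO PAB and in WT PAB 1 and 3.

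Bdh1 was the 1 gene of the 32 that edgeR called with banding over all 16 libraries (adjusted p below 0.05), and it was higher. Its level was 77.3, 80.8, 70.2 and 82.75 CPM in KO PAB, against 37.05, 42.8, 47.6 and 44.9 CPM in KO SHAM. In WT the levels were 82.05, 52.6, 73.55 and 51.9 CPM after banding and 43.5, 30.8, 33.0 and 45.2 CPM after sham surgery. Every banded library was above every sham library of its genotype, as for 1.22% of all genes tested in both genotypes at once, with the banded WT libraries spread between a lower and a higher pair. These levels rest on 1915 to 2334 counts in KO PAB, 1116 to 1637 in KO SHAM, 1345 to 2303 in WT PAB and 921 to 1100 in WT SHAM. Averaged over genotypes, Bdh1 rose 1.76-fold (log2 fold change 0.81, SE 0.11, adjusted p 0.00208). In this comparison 5.09% of 13458 genes passed the test (adjusted p below 0.05), and 1 of the 32 did. At an unadjusted p below 0.05 there were 3 of the 32 (Bdh1, Oxct1 and Bckdha), against 22.7% of all genes. Without the 3 sham libraries the rise was 0.72 (SE 0.12, adjusted p 0.0127), where 7.00% of genes passed.

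Within KO, Bdh1 rose by 0.85 (SE 0.16, adjusted p 0.0309), again as 1 of the 32 genes, against 0.632% of all genes tested. Without the 3 sham libraries it rose by 0.88 (adjusted p 0.0301). This call was lost when any 1 of KO PAB 2, KO PAB 4, KO SHAM 1, KO SHAM 2 or KO SHAM 3 was left out, with log2 fold changes of 0.79 to 0.91 and adjusted p of 0.0731 to 0.12 in those 5 fits. Within WT the difference was 0.77 (SE 0.16) and did not pass (adjusted p 0.179), in a comparison where none of the 32 and 0.00743% of all genes, a single one, passed. There 3 of the 32 had an unadjusted p below 0.05, against 11.7% of all genes. DESeq2 called Bdh1 in WT (adjusted p 0.00276), with 0.802% of all genes, and limma-voom did not. Without the 3 sham libraries, the edgeR difference in WT was 0.56 (SE 0.175, adjusted p 0.59). In that WT comparison 0% of all genes passed. The banding difference in KO minus that in WT was 0.08 (SE 0.22, adjusted p 0.999) for Bdh1, and 0.32 (SE 0.23, adjusted p 1) without the 3 sham libraries.

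Oxct1 and Acat1, which act after Bdh1, differed from it and from each other. Oxct1, the enzyme that activates acetoacetate, was at 2942, 3219, 3081 and 3188 CPM in KO PAB, against 2729, 2746, 2699 and 1990 CPM in KO SHAM. It had 3318, 2513, 3137 and 2754 CPM in WT PAB, against 2588, 1681, 2074 and 2514 CPM in WT SHAM. The groups did not overlap in KO, as for 5.86% of all genes that were higher in KO PAB without overlap, and overlapped in WT through WT PAB 2. Averaged over genotypes Oxct1 differed by 0.35 (SE 0.11, adjusted p 0.069), and by 0.20 without the 3 sham libraries (adjusted p 0.109). The Oxct1 adjusted p ran from 0.0128 in DESeq2, which called it and 9.93% of all genes, to 0.169 over all alternatives. Acat1, the thiolase that also serves isoleucine breakdown, was at 635, 540, 491 and 486 CPM in KO PAB, against 695.5, 693, 669 and 491 CPM in KO SHAM. In WT PAB it was at 533, 552.5, 614 and 636 CPM, against 681, 415, 550 and 655 CPM in WT SHAM. Both pairs of groups overlap, and KO SHAM 4 lies with the banded libraries. Averaged over genotypes, Acat1 differed by -0.11 (SE 0.11, adjusted p 0.591) and without the 3 sham libraries by -0.27 (SE 0.08, adjusted p 0.0512). Its value in WT was 0.02 with all libraries and -0.19 without the 3.

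**Figure D2:**
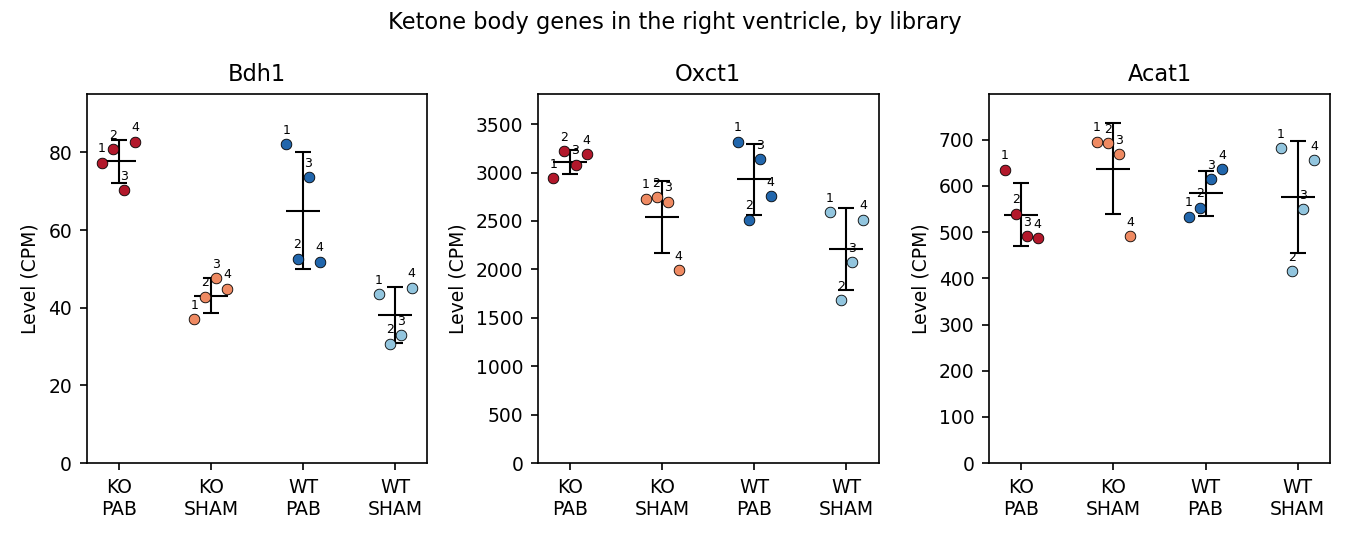
Level in CPM (vertical axes, each starting at 0) of Bdh1, Oxct1 and Acat1 in the 4 libraries of KO PAB, KO SHAM, WT PAB and WT SHAM. Points are libraries with their replicate number, and bars are mean ± SD (n = 4). Bdh1 separates banded from sham libraries in both genotypes, Oxct1 in KO, and Acat1 in neither.

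The 3 ketone genes also differ in the stretch around their transcription start, printed here for that comparison. Each is 300 bases from RefSeq in the rat build GRCr8, 250 before the start and 50 after it, while the counts were made with Rnor_6.0. Bdh1 lies at chr11:82842587-82842886 on the minus strand, Oxct1 at chr2:54963714-54964013 on the plus strand and Acat1 at chr8:62904993-62905292 on the minus strand. Capitals mark GC boxes (GGGCGG, searched on both strands, so also as its reverse complement).
Bdh1: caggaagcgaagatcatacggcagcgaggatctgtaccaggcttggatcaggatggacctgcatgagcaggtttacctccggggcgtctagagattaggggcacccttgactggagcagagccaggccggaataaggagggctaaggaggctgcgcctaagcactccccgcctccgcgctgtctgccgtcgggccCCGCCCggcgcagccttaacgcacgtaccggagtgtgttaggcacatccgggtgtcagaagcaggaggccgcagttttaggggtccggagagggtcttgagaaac
Oxct1: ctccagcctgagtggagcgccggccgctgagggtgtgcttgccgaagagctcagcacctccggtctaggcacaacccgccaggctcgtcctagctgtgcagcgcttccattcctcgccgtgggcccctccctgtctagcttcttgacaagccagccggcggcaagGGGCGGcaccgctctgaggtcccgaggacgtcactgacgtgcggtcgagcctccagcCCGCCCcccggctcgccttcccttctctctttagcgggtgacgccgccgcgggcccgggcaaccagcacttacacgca
Acat1: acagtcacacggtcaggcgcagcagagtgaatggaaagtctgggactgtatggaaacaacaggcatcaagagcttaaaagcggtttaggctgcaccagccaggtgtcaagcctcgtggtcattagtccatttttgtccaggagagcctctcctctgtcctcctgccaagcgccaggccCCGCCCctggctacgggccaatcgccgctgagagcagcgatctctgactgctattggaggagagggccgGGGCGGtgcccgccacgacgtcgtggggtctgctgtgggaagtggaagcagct
Bdh1 has 1 GC box, with 2 each in Oxct1 and Acat1. A GC box was found in 21 of the 29 genes of the set that had such a stretch, and in 33.1% of all 33469 stretches. A gene of the set counted if any stretch of its symbol matched. The 33.1% counts stretches, of genes tested here or not, so the shares are not like for like. No copy of the estrogen response element (GGTCA and TGACC with 3 bases between), the estrogen-related receptor element (TCAAGGTCA) or the PPAR response element (AGGTCA repeated with 1 base between) was found in the 29, against 0.0269%, 0.433% and 0.0538% of all stretches. Elements this rare would most likely be absent from any 29 genes, so their absence tells nothing about the control of these genes. The counts are matches of letters in a short window and not measured binding.

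Ratios of counts within a library do not depend on how libraries are scaled, and they set Bdh1 against the other ketone genes directly. The log2 ratio of Bdh1 to Acat1 was -2.78 ± 0.20 in KO PAB and -3.88 ± 0.33 in KO SHAM (SD, n = 4 each). In WT PAB it was -3.19 ± 0.40 and in WT SHAM -3.91 ± 0.13 (SD, n = 4 each). All banded libraries were above all sham libraries of their genotype, so Bdh1 gained on Acat1 by 1.09 in KO and 0.72 in WT on the log2 scale. Averaged over genotypes the gain was 0.90 (two-sided exact permutation p 0.000408, the smallest possible, 0.00122 after adjustment over the 6 ratio tests). Against Oxct1, the ratio of Bdh1 was -5.32 ± 0.09 in KO PAB and -5.87 ± 0.31 in KO SHAM (SD, n = 4 each). It was -5.52 ± 0.18 in WT PAB and -5.86 ± 0.09 in WT SHAM (SD, n = 4 each). Bdh1 gained on Oxct1 by 0.55 in KO, by 0.34 in WT and by 0.45 on average (exact permutation p 0.000408 for the average, adjusted 0.00122), with no overlap in either genotype. The share of all genes that separate in this way over Acat1 or Oxct1 was not counted. Bdh1 was chosen with earlier results of these data known, which the adjustment over 6 tests does not cover. Within a genotype each of the 4 tests gave 0.0286 before and after adjustment, the smallest an exact test of 4 against 4 can give. The 3 sham libraries took no common place in these ratios: KO SHAM 4 and WT SHAM 2 had the highest of their groups and WT SHAM 3 the lowest. The KO groups were closest for the ratio to Oxct1, at -5.456 in KO PAB 3, against -5.469 in KO SHAM 4. Without the 3 sham libraries the average gains were 0.98 over Acat1 and 0.51 over Oxct1.

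The ratio of Oxct1 to Acat1 was added after the values were seen and is given without a test. The share of all genes that separate as it does was not counted either. It lay at 2.21 to 2.71 in KO PAB, against 1.97 to 2.02 in KO SHAM. In WT PAB it lay at 2.11 to 2.64, against 1.92 to 2.02 in WT SHAM. The 8 sham libraries thus fall within a narrow band, and all 8 banded libraries lie above it, with mean differences of 0.54 in KO and 0.37 in WT. KO SHAM 4 and WT SHAM 2 had the highest ratio of their sham groups, and WT SHAM 3 the lowest.

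**Figure D3:**
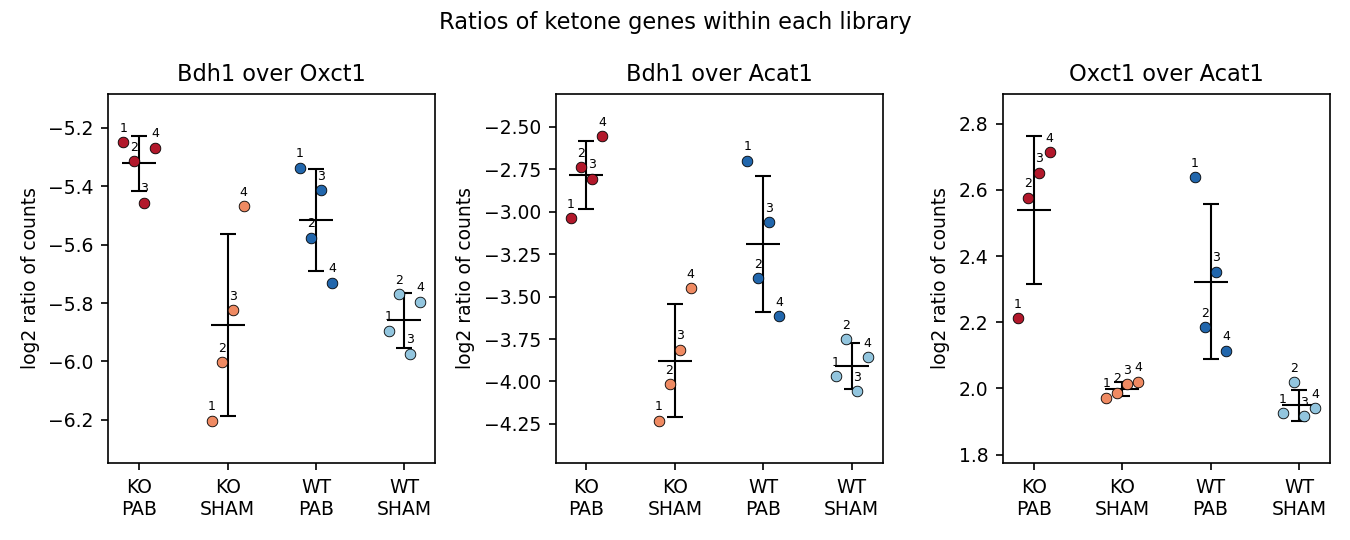
Log2 ratio of counts (vertical axes, not starting at 0) of Bdh1 over Oxct1, Bdh1 over Acat1 and Oxct1 over Acat1 in each library of KO PAB, KO SHAM, WT PAB and WT SHAM, with mean ± SD (n = 4) and replicate numbers. In all 3 panels every banded library is above every sham library of the same genotype. The share of all genes with such a separation was not counted.

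No gene of the TCA cycle or shuttle passed the test with banding, where 5.09% of all genes passed averaged over genotypes, 0.632% in KO and 0.00743% in WT. In KO the 15 log2 fold changes ran from -0.27 to 0.05 with a median of -0.09, and 12 were negative, beside a median of -0.02 over all genes tested. In WT they ran from 0.01 to 0.24 with a median of 0.15, and all 15 were positive, again beside -0.02 over all genes. Their SE were 0.14 to 0.20, so each value lies within 2 SE of 0. Averaged over genotypes none of the 15 had an unadjusted p below 0.05 with edgeR, and neither DESeq2 nor limma-voom called any.

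Within this group Ogdh, the first component of the oxoglutarate dehydrogenase, had the smallest p in WT, and Suclg1, the shared subunit of both succinyl-CoA ligases, in KO. Ogdh was at 1688, 1542, 1307 and 1278 CPM in KO PAB, against 1349, 1527, 1523 and 1217 CPM in KO SHAM. In WT PAB it was at 1360, 1368, 1645 and 1438 CPM, against 1410, 803, 1151 and 1568 CPM in WT SHAM. The WT groups overlap, with WT SHAM 2 the lowest of the 8 libraries (difference 0.24, SE 0.17, adjusted p 0.59). Suclg1 was at 572, 439.5, 390.1 and 393 CPM in KO PAB, against 605.5, 614.5, 568 and 376 CPM in KO SHAM, a difference of -0.27 (SE 0.20, adjusted p 0.565), or -0.41 without the 3 sham libraries (adjusted p 0.0841). In WT it was at 457, 458, 552 and 529 CPM after banding and 615, 328, 460.5 and 586 CPM after sham surgery. KO SHAM 4 and WT SHAM 2 were the lowest libraries of their sham groups for Suclg1. Citrate synthase (Cs), the entry step of the cycle, averaged 614 ± 51.7 CPM in KO PAB and 655 ± 76.5 CPM in KO SHAM (SD, n = 4 each). It averaged 646 ± 54.4 CPM in WT PAB and 606 ± 135 CPM in WT SHAM (SD, n = 4 each), so the groups differ by less than the spread of the sham libraries.

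**Figure D4:**
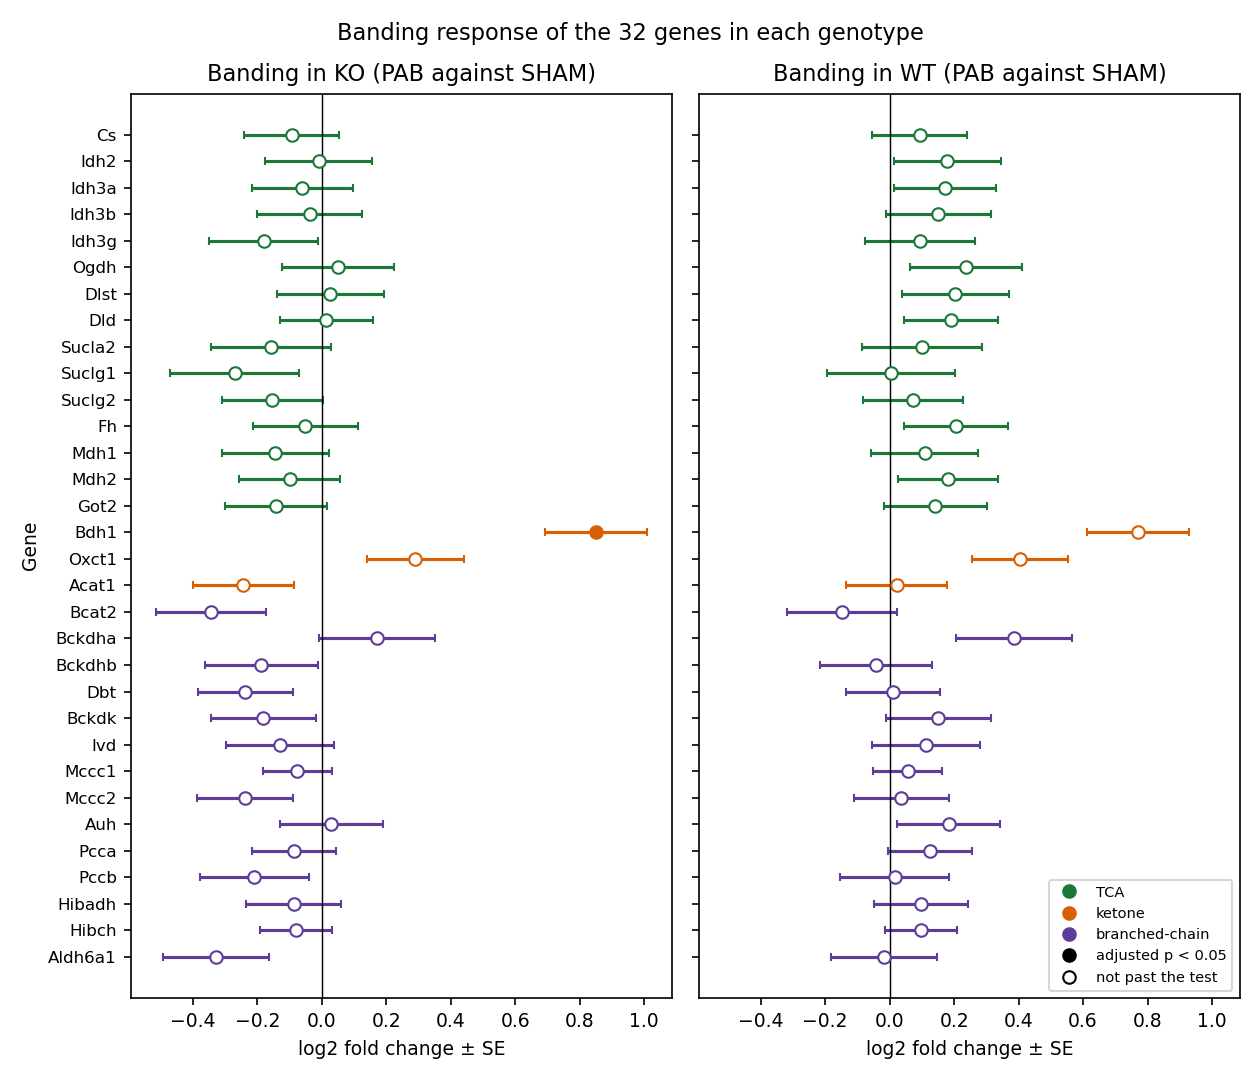
Log2 fold change with SE (horizontal axis) of PAB against SHAM for each of the 32 genes in KO (left) and in WT (right), coloured by pathway, with filled points past the test. Bdh1 in KO is the filled point (0.85), and TCA values lie left of 0 in KO for 12 of 15 genes and right of 0 in WT for all 15.

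Of the 14 genes of branched-chain catabolism none passed the test with banding, against the same 5.09%, 0.632% and 0.00743% of all genes. Values ran from -0.34 to 0.17 in KO (median -0.155) and from -0.15 to 0.38 in WT (median 0.08). Bcat2, the mitochondrial transaminase of the first step, had the smallest p in KO. It was at 151, 104.5, 103.0 and 90.1 CPM in KO PAB, against 157, 135.5, 149 and 128 CPM in KO SHAM (difference -0.34, SE 0.17, adjusted p 0.35). In WT it was at 92.6, 107, 128 and 103 CPM after banding and 144, 93.4, 102 and 138 CPM after sham surgery. 3 of 4 banded KO libraries lay below all KO sham libraries and KO PAB 1 did not, while the WT groups overlap.

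Bckdha, the decarboxylase subunit that commits branched-chain ketoacids to breakdown, had the highest value of the group in both genotypes, past the test in neither. It was at 195, 136, 115 and 114.5 CPM in KO PAB, against 132, 110, 124.5 and 131 CPM in KO SHAM. In WT PAB it was at 178, 228, 194 and 156.4 CPM, against 156.2, 103, 164 and 156.4 CPM in WT SHAM. The banded WT libraries include the 3 highest WT values and the banded and sham KO libraries overlap. The Bckdha difference was 0.38 in WT (SE 0.18, adjusted p 0.426) and 0.17 in KO. Bckdhb, the other subunit of the same enzyme, differed by -0.04 in WT and -0.19 in KO, and the core subunit Dbt by 0.01 and -0.24. Bckdk, the inhibitory kinase, differed by -0.18 in KO and 0.15 in WT, none past the test. Without the 3 sham libraries the WT values were -0.23 for Bckdhb, -0.14 for Dbt and -0.04 for Bckdk.

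The enzymes further down were closer together. Those of the leucine branch (Ivd, Mccc1, Mccc2 and Auh) differed by -0.24 to 0.03 in KO and by 0.04 to 0.18 in WT, or by -0.34 to -0.07 and by -0.18 to -0.05 without the 3 sham libraries. Pcca and Pccb, which carboxylate propionyl-CoA, differed by -0.09 and -0.21 in KO and by 0.13 and 0.02 in WT, where they were -0.02 and -0.23 without the 3. Of the valine branch, Hibch and Hibadh differed by -0.08 and -0.09 in KO and by 0.10 each in WT, where they were -0.04 and -0.07 without the 3. Aldh6a1, a dehydrogenase of that branch, was at 871, 792, 734 and 735 CPM in KO PAB, against 1081, 1091, 1022 and 735 CPM in KO SHAM. It was at 692, 773, 865 and 953.5 CPM in WT PAB, against 1019, 613, 763 and 928 CPM in WT SHAM. KO SHAM 4 shares the level of the banded KO libraries, and the other KO sham libraries lie above all of those. The Aldh6a1 difference was -0.33 in KO (SE 0.17, adjusted p 0.36) and -0.02 in WT, or -0.44 and -0.24 without the 3.

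Leaving out the 3 sham libraries turned the TCA values in WT and lowered most others. All 15 TCA genes were then negative in KO (median -0.17) and in WT (median -0.09), and 13 of the 14 branched-chain genes were negative in each genotype (medians -0.24 and -0.08), beside a median of 0.01 over all genes in both. Averaged over genotypes, 2 genes fell, Aldh6a1 by 0.34 (SE 0.08, adjusted p 0.0333) and the leucine enzyme Mccc2 by 0.26 (SE 0.07, adjusted p 0.0381), where 3.17% of all genes were called lower. Within KO no gene but Bdh1 passed (2.53% of all genes did), and the lowest adjusted p among the others was 0.0509, of Aldh6a1. At an unadjusted p below 0.05 in either direction there were 13 of the 32 averaged over genotypes, against 24.8% of all genes. In KO there were also 13 of the 32, against 23.4% of all genes. Within WT, where 2 sham libraries remain, no gene of the set and no gene at all passed (0%), with 2 of the 32 and 7.47% of all genes at an unadjusted p below 0.05. With a score of adipocyte and mesothelial markers as a covariate over all 16 libraries, 9 of the 32 passed in the averaged comparison, where 8.46% of all genes did. These were Bdh1 upward and Idh3g (a subunit of the NAD-dependent isocitrate dehydrogenase), Suclg1, Suclg2 (its partner in the GTP-forming ligase), Acat1, Bcat2, Mccc2, Pccb and Aldh6a1 downward, with falls of 0.25 to 0.40.

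**Figure D5:**
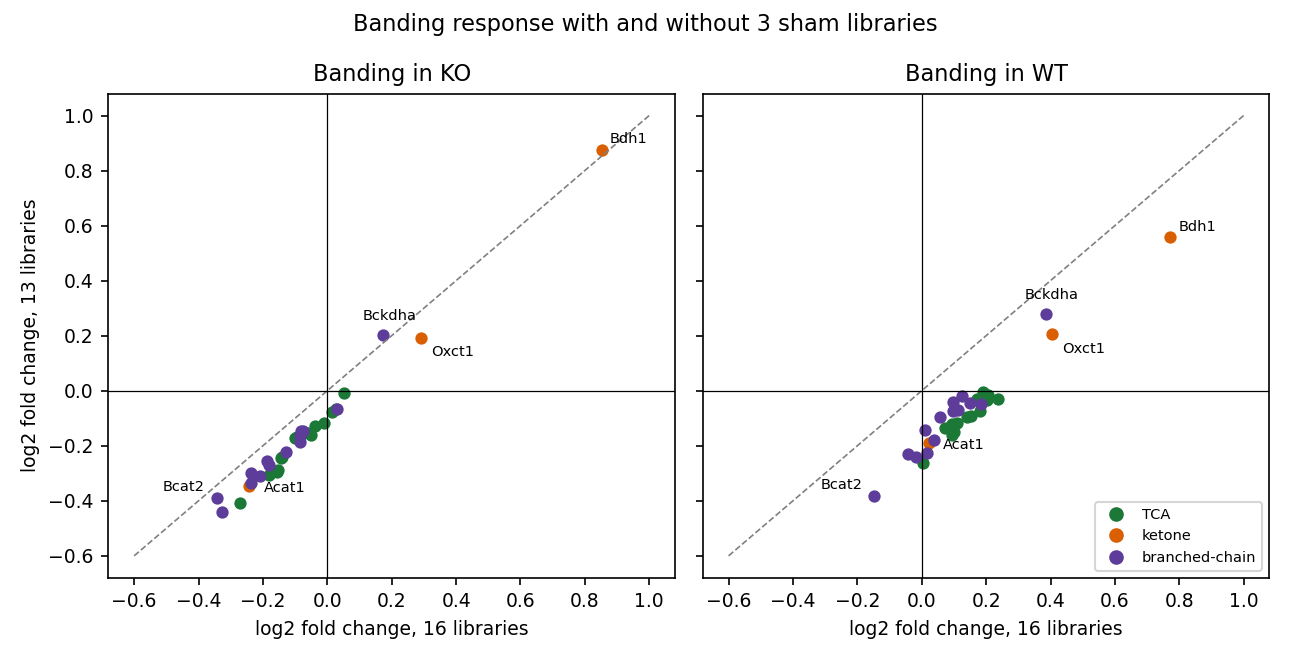
Log2 fold change of PAB against SHAM for each of the 32 genes with all 16 libraries (horizontal axis) and without KO SHAM 4, WT SHAM 2 and WT SHAM 3 (vertical axis), in KO (left) and in WT (right). The dashed line marks equal values. Without the 3 libraries the 15 TCA genes lie below 0 in both genotypes. Bdh1 is then at 0.88 in KO and 0.56 in WT, against 0.85 and 0.77 with all 16.

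A level relative to the TCA genes of the same library, added after the values were seen, sets each gene against the group it works with. On this scale, the log2 level of a gene minus the mean of the TCA genes, Bdh1 lay higher after banding by 0.93 in KO and 0.59 in WT, and Oxct1 by 0.38 and 0.25. Oxct1 was at 1.96 to 2.38 in KO PAB, against 1.85 to 1.89 in KO SHAM, and at 1.944 to 2.31 in WT PAB, against 1.74 to 1.939 in WT SHAM. Groups of both genotypes were apart without overlap for Bdh1, Oxct1 and Dlst (0.12 and 0.07), all 3 higher. Dlst is the succinyl-transferring core of oxoglutarate dehydrogenase. Of all genes tested, 0.394% separated in this way, against 1.22% in CPM. In WT alone the share was 0.594%, against 2.60% in CPM, and the share lower was 2.20%, against 2.33%. The TCA genes were low in the 3 sham libraries, so this scale raises genes there that do not follow them. Most genes of the set were low there too, so shares of all genes on this scale are not like for like with the set. For Dlst the WT groups nearly touched, at 0.2615 to 0.3099 in WT PAB, against 0.1355 to 0.2562 in WT SHAM. Dld (0.11) was also higher without overlap in KO, as were 3.24% of all genes. Acat1 lay lower by 0.16 in KO, at -0.33 to -0.25 in KO PAB, against -0.14 to -0.11 in KO SHAM. Acat1, Aldh6a1 (-0.23) and Got2 (-0.06) were lower without overlap in KO, as were 2.30% of all genes. Suclg1 (-0.14), Bcat2 (-0.30) and Mccc2 (-0.11) were lower without overlap in WT, as were 2.20% of all genes. These levels are described and not tested.

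Loss of ERalpha changed none of the 32 genes past the test, with or without load. In banded hearts, KO against WT, 0.00743% of all genes passed, a single one. The log2 differences of the 32 genes ran from -0.43 to 0.26 with a median of -0.07, and 1 had an unadjusted p below 0.05, against 4.52% of all genes. That gene was Bckdha, with the values given above (difference -0.43, SE 0.18, adjusted p 0.999), where KO PAB 1 lies among the WT PAB libraries. Of the TCA genes Got2, the mitochondrial aspartate aminotransferase of the shuttle, had the smallest p, at 1200.0, 1090, 968.5 and 1015 CPM in KO PAB, against 1130, 1103, 1297 and 1239 CPM in WT PAB (difference -0.16, SE 0.16, adjusted p 0.999). Bdh1 was 0.26 higher in KO PAB (SE 0.16) and Oxct1 0.08 (SE 0.15), neither past the test. In sham hearts, KO against WT, again 0.00743% of genes passed, and 31 of the 32 differences were positive (median 0.16). WT SHAM holds 2 of the 3 sham libraries low in these genes and KO SHAM 1, and without them 21 of 32 were positive with a median of 0.04. Dld, the dehydrogenase shared by the ketoacid complexes, had the smallest p of the TCA genes, at 606, 625, 564 and 446 CPM in KO SHAM, against 567, 353, 472 and 551 CPM in WT SHAM (difference 0.21, SE 0.15, adjusted p 0.996). Both groups overlap. Hibch, of the valine branch, had the smallest p of the 32 and the single unadjusted one below 0.05, against 2.03% of all genes. It was at 66.5, 69.2, 67.4 and 55.1 CPM in KO SHAM, against 59.2, 42.7, 53.4 and 59.3 CPM in WT SHAM (difference 0.27, SE 0.11, adjusted p 0.996). Averaged over surgeries, 0.00743% of all genes and none of the 32 passed, with Bckdha (-0.33) and Hibch (0.18) at an unadjusted p below 0.05, as were 4.93% of all genes. DESeq2 and limma-voom called none of the 32 in these 3 comparisons.

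The interaction, the banding difference in KO minus that in WT, was negative for 31 of the 32 genes (median -0.22), beside a median of 0.01 over all genes. No gene of the set and 0% of all genes passed, and none of the 32 had an unadjusted p below 0.05, against 1.76% of all genes. DESeq2 and limma-voom also called none of the 32. The smallest p was that of Bckdk (-0.33, SE 0.23, adjusted p 0.999), and among TCA genes that of Mdh2, the malate dehydrogenase of the mitochondrion (-0.28, SE 0.22, adjusted p 0.999). Bckdk was at 140, 117, 106.0 and 94.3 CPM in KO PAB, 125, 134.5, 155 and 104 CPM in KO SHAM, 122, 115, 142.0 and 97.6 CPM in WT PAB and 122, 83.4, 99.35 and 124 CPM in WT SHAM, all 4 groups overlapping. Mdh2 was at 1365, 1080, 995 and 1001 CPM in KO PAB, 1227, 1232, 1306 and 993 CPM in KO SHAM, 1169, 1182, 1311 and 1153 CPM in WT PAB and 1146, 763, 1011 and 1328 CPM in WT SHAM. Without the 3 sham libraries the median interaction was -0.12, and 30 of 32 remained negative.

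Beside the set, other genes of the same pathways were counted: 14 of 14 of the TCA cycle and shuttle, 8 of 9 of ketone metabolism and 14 of 15 of branched-chain catabolism were tested. With all 16 libraries 1 of them passed with banding (5.09% of all genes did), Idh1, the cytosolic NADP-dependent isocitrate dehydrogenase, which rose in the averaged comparison by 0.36 (SE 0.07, adjusted p 0.0111). It was at 94.2, 84.9, 72.5 and 80.5 CPM in KO PAB, against 72.5, 71.5, 61.1 and 57.6 CPM in KO SHAM. In WT it was at 76.3, 67.8, 83.6 and 72.3 CPM after banding and 54.5, 57.6, 53.8 and 62.8 CPM after sham surgery. The WT groups did not overlap, as for 2.60% of all genes that were higher in WT PAB without overlap. KO PAB 3 and KO SHAM 1 shared a level. The mitochondrial counterpart of Idh1 in the set, Idh2, differed by 0.09 on average (adjusted p 0.705). Without the 3 sham libraries, where 7.00% of all genes passed, Idh1 rose by 0.32 (adjusted p 0.0343), while Sdhc, a membrane anchor of succinate dehydrogenase, fell by 0.23 (adjusted p 0.0463) and Acadsb, an isoleucine-branch dehydrogenase, by 0.33 (adjusted p 0.0369). Of the 8 other ketone genes none passed with banding (median 0.01 averaged over genotypes). The transporter Slc16a1 differed by 0.27 (SE 0.12, adjusted p 0.175).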

How the data were processed

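Per the labels' protocols, total RNA from 10 mg of right ventricle was made into stranded mRNA libraries. Each of the 16 deposited files gives expected counts per gene symbol as whole numbers. Per the submitters' processing notes the authors worked with the build Rnor_6.0 and with RSEM 1.3.0 and STAR 2.5.3a, while the annotation, strand setting and rounding are not given in the sources used here. Reads shared with related gene copies were divided by RSEM, so their genes are less certain.

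Counts were tested in R 4.3.3 with edgeR 4.0.16: TMM scaling, filterByExpr (minimum count 10), a robust quasi-likelihood fit of the 4 group means to all 16 libraries, and Benjamini-Hochberg adjustment over 13458 genes, which include all 32 genes described. Past the test means an adjusted p below 0.05. The SE is the log2 fold change over the square root of F. CPM are TMM-scaled. Ratios used counts plus 0.5. The level relative to the TCA genes used log2(CPM + 0.1), leaving a TCA gene out of its own reference.

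The genes, lists and tests were chosen with earlier results of these data known. Named are Bdh1, Oxct1, Acat1, members past the test and the smallest p per pathway and comparison, and Cs, Mccc2, Aldh6a1 and Dlst were added after their values were seen. Alternatives were RLE, DESeq2 1.42.0, limma-voom 3.58.1, other filters, a replicate block, fits to the groups compared, no mitochondrially encoded genes, and leaving out libraries. The fits without 3 sham libraries and with a marker covariate were added with the data known. Procedures were tested on simulated data. No replicate pair agreed within sampling noise (chi-square per degree of freedom at least 18.1).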

Additional observations from a re-analysis of the deposited data

Results flagged for a closer look

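Among 140 group values checked, 8 had 1 library far from the other 3 of its group (gap over range above 0.829), and chance gives about 1 in 20. KO SHAM 4 was low for 5 genes, at 148.2 CPM for Suclg2, 920.4 for Got2, 1990 for Oxct1, 490.8 for Acat1 and 300.4 for Ivd. It is 1 of the 3 sham libraries high in mesothelial markers. WT SHAM 2, another of them, was low for Bckdha at 102.9 CPM. KO PAB 1 was high for Idh2 at 2596 CPM and for Bckdhb at 168.1 CPM, and it had the highest cardiomyocyte marker sum of its group (48620 CPM).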

How the results depend on the processing

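Bdh1 passed the averaged banding test under all 25 alternatives, with log2 fold changes of 0.69 to 0.86. The number of the 32 genes past that test was 2 in DESeq2, 3 without the 3 sham libraries and 9 with the marker covariate, and 1 with any single library left out. In KO it was 5 with the covariate, where 5.90% of all genes passed, and 0 to 1 with single libraries left out, where 0 to 275 of all genes passed. In WT it was 1 in DESeq2. Replicate numbers did not pair the samples (correlations of same-numbered libraries -0.621 to 0.562, 3 of 16 libraries closest to their own number). With the replicate block the number in KO was 0 (Bdh1 0.85, adjusted p 0.0791).

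Signs turned for Ogdh with banding, averaged (-0.0198 without the 3 sham libraries, -0.0588 with the covariate) and in WT (-0.0302 and -0.0101). They turned for Acat1 in WT (-0.19 and -0.22, and -0.10 to 0.11 with single libraries left out) and in KO against WT averaged over surgeries (-0.0365 and -0.0608, and -0.0453 to 0.0707). Bdh1 in KO against WT shams was -0.0572 without the 3 libraries. Leaving out single libraries gave interactions of -0.0145 to 0.21 for Bdh1 and -0.21 to 0.0028 for Oxct1. None of these passed the test, and the cause was not tested.

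The WT ratios of Bdh1 without the 3 sham libraries were 0.33 over Oxct1 and 0.72 over Acat1, with an adjusted exact permutation p of 0.133, in a comparison of 4 against 2 libraries that cannot reach 0.05. With single libraries left out, Bdh1 over Oxct1 was 0.44 to 0.69 in KO and 0.28 to 0.42 in WT, and Bdh1 over Acat1 0.55 to 0.86 in WT. Over all genes, calls ranged from 356 to 1337 averaged (DESeq2 1337, covariate 1138), from 0 to 794 in KO (replicate block 0, groups compared alone 155, DESeq2 509, without the 3 sham libraries 344, covariate 794) and from 0 to 108 in WT (DESeq2 108). DESeq2 called 5 genes in KO against WT banded hearts, and 12 averaged over surgeries, with 2 in limma-voom. A fit to the groups compared alone was not run for averaged comparisons and interactions, which need all 4 groups.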

Other observations

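Ucp1, the uncoupling protein of brown fat, was at 50 CPM in WT SHAM 3 and at 0 to 0.0377 CPM in the other 15 libraries. Adipoq was at 5.21 CPM in KO PAB 3, the banded library with the highest value, beside 14.1 CPM for the mesothelial marker sum there.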
